A study of Eulimnogammarus verrucosus and Eulimnogammarus cyaneus and Gammarus lacustris with 24 samples.

Results

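The proteasome genes of 3 amphipod crustaceans were compared after a month in cold or warm water. The members are the entries of the deposited per-gene tables whose names match a pattern of proteasome gene symbols: PSMA to PSMG with a number, the Drosophila and yeast-style names Pros, Rpn and Rpt, the Caenorhabditis names pas and pbs, and ADRM1, POMP and PAAF1. There were 86 such entries among 12688, made up of 25 of 5094 in Gammarus lacustris, 36 of 3920 in Eulimnogammarus verrucosus and 25 of 3674 in Eulimnogammarus cyaneus. They carry 44 different names, of which 12 were listed in all 3 species, 18 in a pair of species and 14 in 1 species. Some entries are other proteins that the pattern also takes: PSMC3IP, a recombination cofactor, and RPN1 and RPN2, which in this spelling are symbols of the ribophorins of protein glycosylation. They are reported apart from the subunits, although RPN1 and RPN2 are also yeast names of proteasome scaffold subunits.

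The study asked how amphipods from Lake Baikal and a Holarctic relative respond to temperature. E. verrucosus and E. cyaneus are the Baikal species and G. lacustris is the widespread one. Adult animals of all 3 species were taken from rocky shallows, held at 6 °C for 14 days, brought over about 6 days to 12 °C or 1.5 °C, and kept there for 1 month, so that no group stayed at the holding temperature. The 6 groups, 1 for each species and temperature, were of 4 libraries each, made from the mRNA of pooled whole bodies. A pool held 3 animals of E. verrucosus, while pools of G. lacustris and E. cyaneus held about 11 and about 13. The 4 libraries of a group are called pools 1 to 4 below, and the spread between them is a spread between pools of animals. In whole bodies, fewer cells of a type and less RNA per cell cannot be told apart.

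The proteasome degrades proteins that carry ubiquitin chains. Its core is a barrel of alpha rings, which gate the entry, around beta rings, which hold the cutting sites. A regulatory particle sits on the barrel: its base contains the PSMC ATPases, which unfold the substrate, together with large scaffold subunits and ubiquitin receptors, and its lid contains the deubiquitinase PSMD14. Assembly factors such as POMP, PSMG2, PSMD5, PSMD9 and PSMD10 help to build the complex and are not part of the finished particle. In flies and mammals, subunit genes are often regulated together, through transcription factors of the NFE2L1 family.

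The deposited tables give gene names without contigs (assembled transcripts), and the libraries give contigs without gene names. Names were therefore paired with contigs by finding the contigs whose counts give exactly the deposited mean normalised count. This paired 76 of the 86 members, of which 22 are from G. lacustris, 33 from E. verrucosus and 21 from E. cyaneus. Levels below are CPM, that is, counts relative to the total of their library, scaled by TMM, and comparisons between genes use TPM, which corrects for length. Of the paired members, 49 had enough counts to be tested with edgeR, 20, 14 and 15 in the same order of species, and a feature was called at a Benjamini-Hochberg adjusted p under 0.05. For the 10 members without a pair, only the authors' deposited table gives a value. Libraries held between 8501813 and 15417647 assigned counts, and no library duplicated another.

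The levels of the subunits were uneven, although the finished core holds its subunits in equal number. In E. verrucosus the 12 paired core subunits fell into 5 at 10 CPM or more and 7 under 1 CPM, with none between. The highest was the alpha subunit PSMA5, at a mean of 122 TPM over the 8 libraries, and the lowest was PSMA6, another alpha subunit, at 0.16 TPM. In E. cyaneus the split was 6 to 4, from PSMA2 at 225 TPM to PSMA1 at 0.361 TPM. The same name could therefore be abundant in one species and almost unread in the other. PSMA1 was at 38.8 ± 11.3 TPM (SD, n = 4) at 12 °C in E. verrucosus and at 0.441 ± 0.334 TPM in E. cyaneus, while PSMA2 was at 0.282 ± 0.312 TPM and 208 ± 37 TPM. Over all subunits and assembly factors, 18 of the 30 paired names in E. verrucosus were under 1 CPM, as were 45.0% of all paired names in that species. The shares were 31.6% against 47.9% in E. cyaneus and 14.3% against 37.4% in G. lacustris. A low value belongs to the contig that carries the name, and whether another contig carries the gene's main transcript was not tested.

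**Figure D1:**
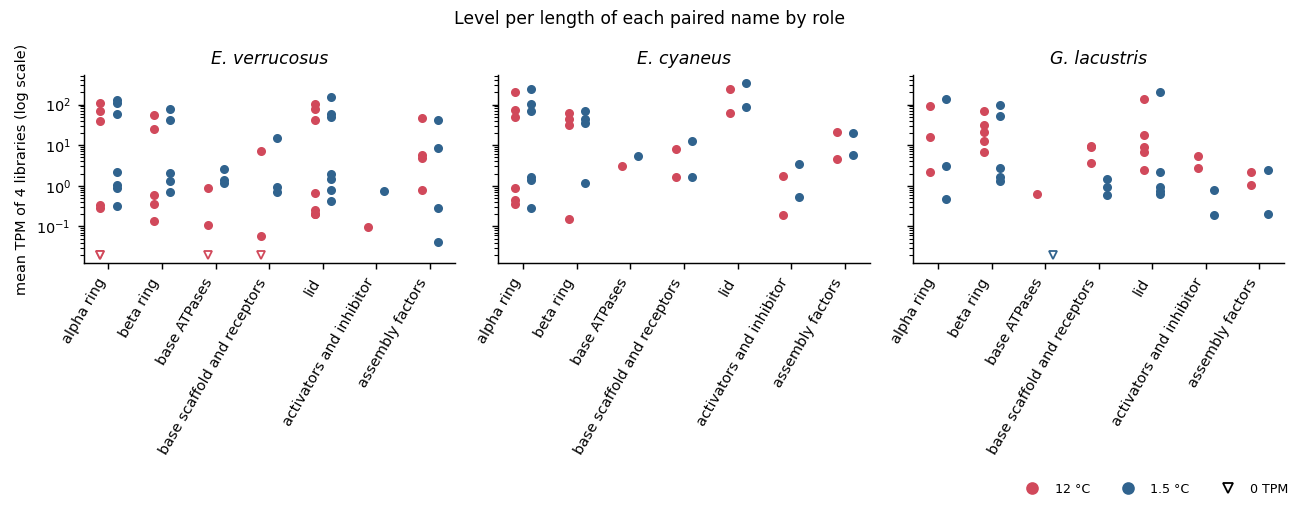
Mean TPM of each paired member over the libraries of each temperature, on a log scale, with 1 panel per species, roles along the horizontal axis, 12 °C in red and 1.5 °C in blue; open triangles at the bottom mark a mean of 0 TPM. In both Eulimnogammarus species the alpha and beta subunits form a high and a low group: over all 8 libraries PSMA5 had a mean of 122 TPM and PSMA6 one of 0.16 TPM in E. verrucosus, and PSMA2 had 225 TPM and PSMA1 0.361 TPM in E. cyaneus.

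In E. verrucosus most measured subunits stood somewhat higher at 1.5 °C, and few of these differences exceeded the spread between pools. The assembly chaperone PSMD9 fell to near 0, a contig of the lid deubiquitinase PSMD14 fell to 2 counts, and the ubiquitin receptor ADRM1 and the lid subunit PSMD6 were higher in all 4 cold pools without passing the edgeR test. Of the 12 subunits and assembly factors tested, 1 was called, PSMD9, which had enough counts for the test only at 12 °C. Of all features in that species 3.34% were called, 1.32% higher and 2.02% lower. The median log2 fold change (1.5 °C over 12 °C) of the 12 was 0.31, with 8 above 0, where the median of all 23801 features was −0.03. The authors' deposited table called 4 members higher and 2 lower, beside 2.70% of its names higher and 1.99% lower.

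The core of E. verrucosus showed no called member. Of the alpha ring, PSMA1 was at 68.6, 39.4, 30.9 and 41.2 CPM in the 12 °C pools and at 44.4, 47, 46.4 and 105 CPM in the 1.5 °C pools. PSMA3 was at 94.2, 65.3, 62.5 and 58.1 CPM and then at 73.5, 78.7, 76.8 and 138 CPM. In both genes the groups overlapped, and the highest value was that of cold pool 4. The log2 fold changes were 0.43 for PSMA1 and 0.39 for PSMA3, with edgeR adjusted p of 0.795 and 0.738. PSMA5 had nearly the same level at both temperatures, 120 and 119 CPM, with a log2 fold change of −0.01 ± 0.26 (SE) and an edgeR adjusted p of 0.996.

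Of the beta ring, PSMB1 and the catalytic subunit PSMB5 were tested. PSMB1 had 39.8, 29.2, 23.6 and 20.3 CPM at 12 °C and 26.8, 38.3, 35 and 66.5 CPM at 1.5 °C. PSMB5 had 101, 62.1, 45 and 54.3 CPM at 12 °C and 61.4, 66.2, 59.7 and 129 CPM at 1.5 °C. Both sets of pools overlapped, and the edgeR adjusted p were 0.636 and 0.885. Of the core subunits too low to test, PSMA7 had 0 counts in the 4 warm pools and 28 in the cold ones, which is at least 7.87-fold higher when 3 counts over the warm group are taken as the limit that 0 allows. The authors' deposited table called PSMA7 higher, at a log2 fold change of 4.77 and an adjusted p of 0.0285.

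Warm pool 1 and cold pool 4 had the lowest TMM factors of their groups, 0.728 and 0.806. The 9 members at 30 CPM or more, on average, lay above their own means in cold pool 4 in 9 of 9 cases, by a median of 0.82 on the log2 scale. The other 391 named features of that level lay 0.20 above their means in the same pool. Without those 2 libraries, an alternative chosen after seeing the data, the median log2 fold change of all 14 tested members was 0.27 and 1 member was called. Without cold pool 4 alone it was 0.03.

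None of the base ATPases of E. verrucosus could be tested. PSMC2 had 0 counts at 12 °C and 19 at 1.5 °C, spread over all 4 cold pools, at least 5.34-fold higher. PSMC6 had 2 counts and 23 counts, a ratio of 9.69 with a 95% counting interval from 2.4 to 84.8. PSMC3 had up to 0.393 CPM in a warm pool and up to 0.439 CPM in a cold pool, with overlapping groups. The abundant ATPases PSMC1 and PSMC4 had no pair, and the authors' deposited table gives PSMC1 a log2 fold change of 0.85 with an adjusted p of 0.017 and PSMC4 one of 0.14 with an adjusted p of 0.922.

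ADRM1, which binds ubiquitin chains at the base, was at 15.6, 16.3, 14.7 and 17.4 CPM at 12 °C and at 26.6, 26.9, 23.4 and 41.7 CPM at 1.5 °C. Every cold pool was above every warm pool. The log2 fold change was 0.89 ± 0.24 (SE), and the edgeR adjusted p was 0.12. DESeq2 run on the same counts gave 0.92 with an adjusted p of 0.031, and the authors' deposited table gives 0.89 with an adjusted p of 0.0377, so the call depended on the tool.

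In the lid, PSMD6 was at 104, 105, 152 and 108 CPM at 12 °C and at 188, 223, 190 and 166 CPM at 1.5 °C, without overlap. Its log2 fold change was 0.71 ± 0.24 (SE) with an edgeR adjusted p of 0.253, whereas DESeq2 gave an adjusted p of 0.0183 and the authors' deposited table gives one of 0.0391. PSMD11, a scaffold of the lid, went from 210, 236, 237 and 180 CPM to 184, 252, 230 and 366 CPM, with overlapping groups and an edgeR adjusted p of 0.843. PSMD14, which cuts ubiquitin chains off substrates, did not pass the edgeR test over both its contigs. It was at 141, 145, 93.1 and 88.6 CPM at 12 °C and at 41, 51.1, 47 and 81.1 CPM at 1.5 °C.

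All 4 cold values of PSMD14 were below the lowest warm value, and the log2 fold change was −1.09 ± 0.31 (SE) with an edgeR adjusted p of 0.143. Without cold pool 4 it was −1.34 with an adjusted p of 0.0427, and the authors' deposited table gives −1.32 with an adjusted p of 0.00794. The name covers 2 contigs that behaved differently. The contig of 990 bases was at 80.6, 99.9, 38.4 and 48.8 CPM at 12 °C and at 0, 0, 0.0627 and 0.124 CPM at 1.5 °C, which is 3115 counts against 2 and a ratio of 1850 with a 95% counting interval from 511 to 15300. The contig of 1262 bases was at 59.8, 45.3, 54.8 and 39.8 CPM and then at 41, 51.1, 47 and 81.1 CPM.

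The cold level of PSMD14 therefore came from the longer contig, whose groups overlapped (log2 fold change 0.14, edgeR adjusted p = 0.935). The shorter contig, with enough counts for the test only at 12 °C, was called lower (edgeR adjusted p = 5.0e-04). When each contig was tested on its own, 1.32% of the E. verrucosus contigs were called higher and 2.02% lower, the latter 486 in number, and 380 of these had a mean under 0.1 CPM at 1.5 °C. A contig near 0 in the cold was thus a common kind of lower call in this species.

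**Figure D2:**
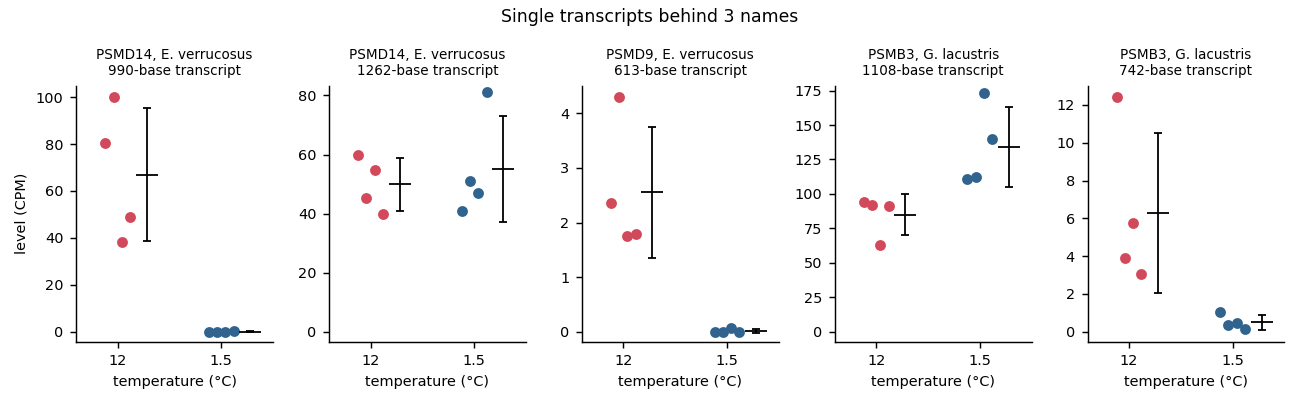
CPM of single contigs of E. verrucosus PSMD14 and PSMD9 and of G. lacustris PSMB3 in the 12 °C (red) and 1.5 °C (blue) pools, on linear scales that differ between panels; points are libraries and black bars are the mean ± SD of 4. The 990-base contig of PSMD14 drops from 38.4 to 99.9 CPM to at most 0.124 CPM while its 1262-base contig overlaps between temperatures, PSMD9 is near 0 in all cold pools, and the 2 contigs of PSMB3 move in opposite directions.

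Among the assembly factors of E. verrucosus, PSMD9, a chaperone of the base, was at 2.36, 4.3, 1.76 and 1.79 CPM at 12 °C and at 0, 0, 0.0626 and 0 CPM at 1.5 °C. A total of 121 counts stood against 1, a ratio of 144 with a 95% counting interval from 25.3 to 5720. It was called lower by edgeR (adjusted p = 0.00207), and its adjusted p lay between 0.00716 and 0.0134 when each library was left out in turn. PSMD9 had enough counts for the test only at 12 °C, the group in which it was high. PSMD5, another base chaperone, was at 19.3, 22.4, 14.3 and 18.2 CPM at 12 °C and at 24.3, 23.9, 22.6 and 23.2 CPM at 1.5 °C. The cold values were all higher by a small amount, with an edgeR adjusted p of 0.639. POMP, the maturation factor of the core, ranged from 12.8 to 87.5 CPM at 12 °C and from 14.4 to 54.2 CPM at 1.5 °C, and its groups overlapped fully. Of the other proteins taken by the pattern, RPN2 had a log2 fold change of 0.54 and PSMC3IP one of −0.04, neither called.

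In E. cyaneus no proteasome member passed the edgeR test in any role, and the groups overlapped for every tested member except the activator PSME4, which was higher in all 4 cold pools. Of 14 subunits and assembly factors tested, edgeR called 0, against 0.626% of all features, 0.313% in each direction. At an unadjusted p under 0.05 there was 1, PSME4, which was also the 1 member that DESeq2 called. The median log2 fold change of the 14 was 0.13, with 8 above 0, where all 20460 features had a median of 0.01. With library totals in place of TMM, the median of the 15 tested members was 0.50 beside 0.37 for all features, and none was called. The authors' deposited table called 1 member higher and none lower, beside 2.24% of its names higher and 4.03% lower.

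PSME4 is a cap that binds the ends of the core in place of the regulatory particle. It was at 1.72, 4.65, 4.57 and 4.5 CPM at 12 °C and at 8.2, 7.39, 8.16 and 9.12 CPM at 1.5 °C. Warm pool 1 was lower than the other warm pools, and the lowest cold value was above the highest warm one. The log2 fold change was 1.08 ± 0.31 (SE) with an edgeR adjusted p of 0.16, and leaving out each library in turn gave adjusted p from 0.0747 to 0.315. DESeq2 gave an adjusted p of 0.0342, and the authors' deposited table gives a log2 fold change of 0.76 with an adjusted p of 0.0336.

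No core member of E. cyaneus was called. PSMA2, an alpha subunit, was at 296, 235, 181 and 145 CPM at 12 °C and at 151, 175, 228 and 252 CPM at 1.5 °C. The groups covered nearly the same range. The log2 fold change of PSMA2 was −0.09 ± 0.27 (SE), and those of the alpha subunits PSMA3 and PSMA6 were 0.23 and 0.19. The 3 tested beta subunits, PSMB1, PSMB2 and PSMB4, had log2 fold changes of −0.08, −0.09 and −0.29, and all core groups overlapped. The SEs of the beta subunits were 0.33 to 0.35, and differences well above that size could also go undetected with these pools. PSME4, at 1.08 ± 0.31 (SE), was not called either.

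In the base, the ATPase PSMC6 was at 1.59, 0.891, 0.448 and 0.322 CPM at 12 °C and at 1.75, 0.731, 0.947 and 0.992 CPM at 1.5 °C. It was the only ATPase tested in any of the 3 species, and its groups overlapped (log2 fold change 0.50, edgeR adjusted p = 0.697). The authors' deposited table gives PSMC4 a log2 fold change of −0.25 with an adjusted p of 0.662. ADRM1 had 0.30 and Pros54, the Drosophila name of the ubiquitin receptor PSMD4, had −0.27, neither called. In the lid, PSMD8 was at 256, 295, 259 and 253 CPM and then at 298, 293, 306 and 374 CPM, with a log2 fold change of 0.26 and an edgeR adjusted p of 0.528. PSMD12 had 0.35 with 0.577.

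Of the assembly factors, PSMG2, a chaperone of alpha ring formation, was at 28.2, 22.5, 17.5 and 9.73 CPM at 12 °C and at 8.3, 16.1, 16.2 and 16.2 CPM at 1.5 °C. Its groups overlapped through warm pool 4. PSMD5 had a log2 fold change of 0.07. Warm pool 4 was below the gene's own mean over the 8 libraries in all 14 members tested, with a median deviation of −0.61 on the log2 scale in the 8 members at 30 CPM or more and of −0.14 in the other 400 named features of that level. Without it, the median of the 15 tested members, RPN1 included, was −0.05.

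In G. lacustris nearly every measured member differed between temperatures, in opposite directions. PSMA5, PSMB1, PSMB3 and PSMD8, all abundant, rose at 1.5 °C by log2 fold changes of 0.69 to 0.88, and 14 members of lower level fell, with log2 fold changes of −1.80 to −3.64. Of the 19 subunits and assembly factors tested, 4 were called higher and 14 lower, and PSMG2 was not called. Features of every kind moved in this species: edgeR called 42.9% of the 26828 tested, 13.5% higher and 29.4% lower, and among the named features 14.5% higher and 46.0% lower. The median log2 fold change of the 19 was −2.50, where that of all features was 0.24 and that of all 2513 named features was −0.26. In the authors' deposited table there were 6 subunits and assembly factors called higher and 16 lower, beside 25.1% and 33.8% of its names.

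The rising subunits of G. lacustris belong to the core and the lid. PSMA5 of the alpha ring was at 145, 159, 144 and 147 CPM at 12 °C and at 190, 214, 344 and 215 CPM at 1.5 °C. PSMB1 of the beta ring was at 31.1, 35.7, 25.5 and 36.6 CPM and then at 48.3, 51.9, 88.6 and 48.7 CPM. PSMB3, also of the beta ring, was at 94.5, 93.9, 64.1 and 95.1 CPM and then at 115, 123, 184 and 141 CPM. In all 3 genes every cold pool was above every warm pool, and cold pool 3 was the highest.

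PSMD8, a lid subunit, was at 110, 174, 169 and 191 CPM at 12 °C and at 219, 278, 309 and 254 CPM at 1.5 °C, again without overlap. The log2 fold changes were 0.69 for PSMA5, 0.88 for PSMB1, 0.70 for PSMB3 and 0.72 for PSMD8, with SEs of 0.23 to 0.27 and edgeR adjusted p of 0.0302, 0.0201, 0.0328 and 0.0258. Features at 30 CPM or more had a median of 0.43, and named features of that level one of 0.49, so the 4 subunits lay close above the features of their own level, of which 26.4% were called higher.

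These 4 calls depended on the scaling and on single libraries. With TMM over features at 32 CPM and more, an alternative chosen after seeing the data, the median of all features was −0.19, the 4 log2 fold changes were 0.24 to 0.43 and none was called. RLE factors and DESeq2 each kept 2 of the calls, library totals 1, and no filter on low counts none. None was called without cold pool 3, or without warm pool 3. Leaving out warm pool 2 kept 2 of the 4, leaving out warm pool 4 likewise kept 2, leaving out cold pool 2 kept 3 and leaving out cold pool 4 kept 1. The authors' deposited table calls all 4 higher, at log2 fold changes of 1.15 to 1.38.

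The falls ran through the core, the scaffold, the lid, an activator and an inhibitor. PSMB4, a beta subunit, was at 40.8, 18.4, 23.7 and 15.7 CPM at 12 °C and at 4.29, 5.07, 2.46 and 2.35 CPM at 1.5 °C. PSMA2 was at 22.9, 10.6, 13 and 9.26 CPM and then at 1.46, 3.02, 1.36 and 2.24 CPM. PSMB7, a catalytic beta subunit, was at 23.6, 10.2, 13.4 and 8.78 CPM and then at 2.05, 3.62, 1.36 and 0.942 CPM. In these core members the groups did not overlap, and warm pool 1 was the highest library.

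Their log2 fold changes were −2.79 for PSMB4, −2.78 for PSMA2 and −2.81 for PSMB7, with edgeR adjusted p of 4.8e-04, 5.3e-04 and 1.0e-03. The other falling core members were PSMA1 at −2.09 and PSMB2 at −2.19. Of the core names tested in this species, 3 thus rose and 5 fell. These values belong to the contigs that carry the names. From which organism of the whole-body pools each contig came was not tested.

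In the base, ADRM1 was at 28.2, 12.9, 15 and 11.3 CPM at 12 °C and at 4.58, 3.98, 1.72 and 1.53 CPM at 1.5 °C. The scaffold subunit PSMD1 has 2 entries in this species, spelled PSMD1 and psmd1. The entry PSMD1 was at 11.8, 6.94, 8.58 and 7.04 CPM and then at 1.66, 2.41, 0.739 and 1.41 CPM. The entry psmd1 was at 19.4, 17.1, 17.9 and 9.84 CPM and then at 2.83, 0, 3.57 and 0.353 CPM.

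All 3 entries fell, with every cold pool below every warm pool, at log2 fold changes of −2.50, −2.45 and −3.23 (edgeR adjusted p of 0.00132, 7.7e-04 and 0.0079). How Salmon divided reads between the entries of 1 name was not tested. The ATPase PSMC3 had 5 counts at 12 °C and 0 at 1.5 °C and could not be tested, so that the base ATPases of G. lacustris were without a usable value.

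In the lid, PSMD6 was at 45.9, 16.4, 27.7 and 15.6 CPM at 12 °C and at 3.31, 4.1, 3.82 and 3.65 CPM at 1.5 °C. PSMD11 was at 27.2, 13.4, 15.8 and 9.74 CPM and then at 2.34, 2.66, 1.23 and 1.41 CPM. PSMD14 was at 13.1, 7.16, 7.73 and 5.3 CPM and then at 0.877, 1.69, 0.862 and 0.706 CPM. No groups overlapped, and the cold pools of PSMD6 lay within a narrow range.

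The log2 fold changes of these lid subunits were −2.82, −3.10 and −2.99, with edgeR adjusted p of 3.9e-04, 3.8e-04 and 4.7e-04. PSMD7, the partner of PSMD14, fell by 1.80, the smallest called fall, and was not called in the authors' deposited table (adjusted p = 0.0751). Of the 5 lid subunits tested 4 fell and PSMD8 rose. For PSMD12, which had no pair, the authors' deposited table gives a log2 fold change of 0.86 with an adjusted p of 3.3e-05, and it gives the unpaired alpha subunit PSMA6 a log2 fold change of −2.04.

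Of the proteins that bind the core, PSME3, a nuclear activator, was at 5.06, 2.06, 1.59 and 1.83 CPM at 12 °C and at 0.292, 0.121, 0 and 0.353 CPM at 1.5 °C. PSMF1, an inhibitor of the core, was at 8.7, 4.77, 6.57 and 4.24 CPM and then at 0.877, 1.33, 0.986 and 0.589 CPM. Both fell without overlap, at log2 fold changes of −3.64 ± 0.68 (SE) and −2.67 ± 0.40 (SE) (edgeR adjusted p of 0.00139 and 5.6e-04). The authors' deposited table gives PSME4, which had no pair, a log2 fold change of −1.12 with an adjusted p of 1.1e-05, a direction opposite to its value of 0.76 in E. cyaneus.

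The assembly factor PSMG2 was at 0.706, 1.63, 0.212 and 1.06 CPM at 12 °C and at 1.17, 3.98, 2.83 and 1.65 CPM at 1.5 °C, with overlapping groups, a log2 fold change of 1.39 ± 0.58 (SE) and an edgeR adjusted p of 0.0754. The authors' deposited table calls it higher, at 1.89 with an adjusted p of 0.00338, and PSMD10 lower, at −2.69 with an adjusted p of 0.0237. RPN1, reported apart, was at 76.5, 34.7, 50.7 and 30.8 CPM and then at 5.46, 9.66, 6.04 and 4.47 CPM. It fell by 2.91 ± 0.38 (SE) on the log2 scale (edgeR adjusted p = 3.4e-04).

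**Figure D3:**
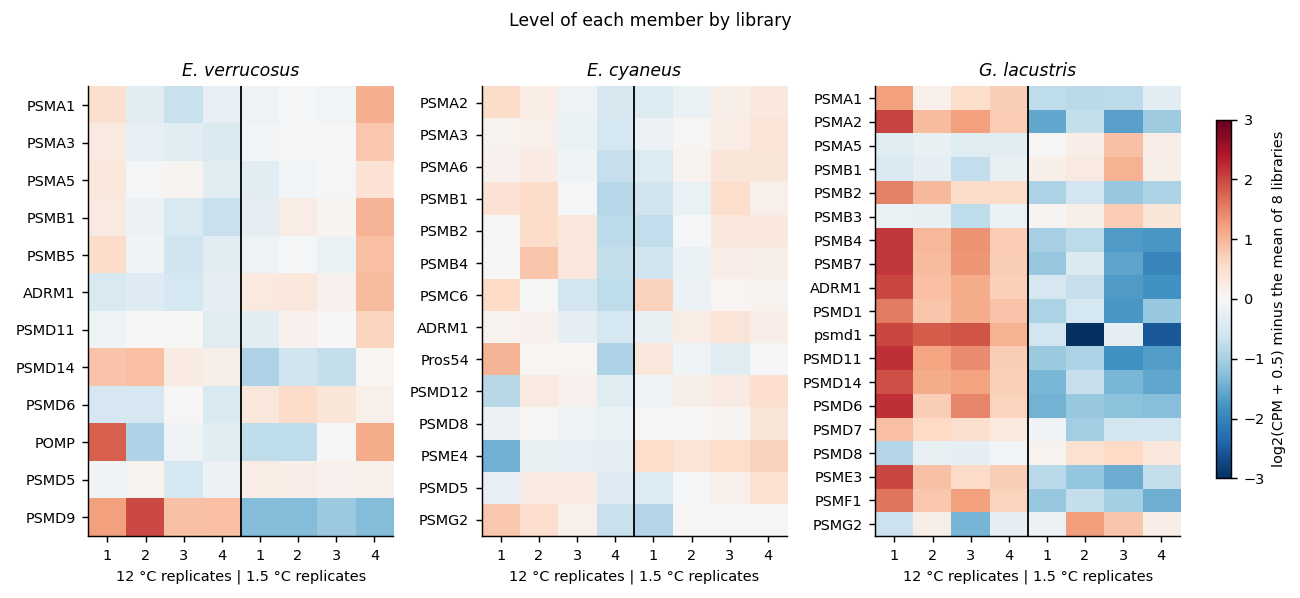
Log2(CPM + 0.5) of each tested member in each library minus its mean over the 8 libraries of the species, with members in rows and libraries in columns; the colour scale, from blue (below the mean) to red (above), is limited to 3 on either side. In G. lacustris the 12 °C and 1.5 °C columns separate for 18 of 19 members, with warm pool 1 the most extreme among the falling members, while in E. cyaneus warm pool 4 is low for all members.

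The direction in G. lacustris went with the mean level over both temperatures, which a fall itself lowers. All 4 members at 30 CPM or more were called higher, and of the 15 under 30 CPM 14 were called lower, with a median log2 fold change of −2.78. Some of the 14, such as PSMA1, PSMD7 and PSME3, had enough counts for the test only at 12 °C. PSMG2, the remaining one, was at 0.901 CPM at 12 °C and had a log2 fold change of 1.39. The split is therefore no test of an effect of level. Other names behaved alike: of the 2100 named features under 30 CPM, 53.6% were called lower and their median was −1.81, whereas all features of that level, most of them without a name, had a median of 0.16. Warm pool 1 was above the members' own means by a median of 1.99 among the 15, against 0.90, 1.22 and 0.73 in the other warm pools, and the other 2084 named features under 30 CPM showed the same order of pools, at 1.17, 0.42, 0.58 and 0.30. Without warm pool 1 the 14 falls and that of RPN1 were still called.

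**Figure D4:**
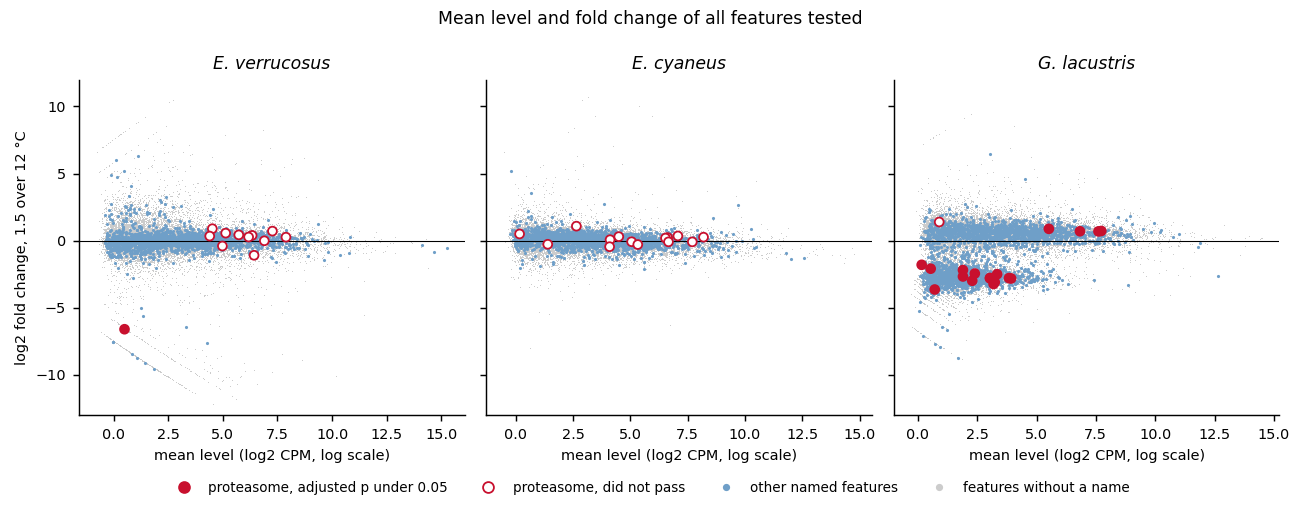
Log2 fold change (1.5 °C over 12 °C) against mean level (log2 CPM) of features without a name in grey, other named features in blue and proteasome members in red (filled where called), with 1 panel per species. In G. lacustris the named features form a cloud above 0 and another near the falling members, with 9.67% of them between −1.5 and 0; in the Eulimnogammarus panels 22 of 1889 (E. verrucosus) and 10 of 1750 (E. cyaneus) other named features lie under −1.5, and of the members PSMD9 of E. verrucosus does.

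Split at a log2 fold change of −1.5, a value chosen after the fold changes were seen, 44.3% of the other 2493 named features of G. lacustris lay under −1.5, 9.67% between −1.5 and 0 and 46.0% at 0 or over. The 19 members fell into 14, 0 and 5. Features without a name were at 27.3%, 13.5% and 59.3%.

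Contigs of 1 name also went apart. PSMB3 of G. lacustris covers 2 contigs: that of 1108 bases was at 93.8, 92.1, 62.7 and 91 CPM at 12 °C and at 111, 112, 173 and 140 CPM at 1.5 °C, and that of 742 bases was at 12.4, 3.88, 5.77 and 3.05 CPM and then at 1.04, 0.329, 0.465 and 0.117 CPM. The first was called higher (log2 fold change 0.66, edgeR adjusted p = 0.0455) and the second lower (−3.61, adjusted p = 0.00129). When contigs were tested singly, 9.70% were called higher and 30.1% lower, and 48 of the 417 names with at least 2 tested contigs had calls in both directions, or 11.5%. In the Eulimnogammarus species 0 of 300 and 0 of 225 such names did.

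The temperature effects of the species were compared directly for names paired and measured in both, by a species-by-temperature interaction in edgeR. Between E. verrucosus and E. cyaneus, 1.60% of 562 names differed, and of the 4 members tested (ADRM1, PSMA3, PSMB1 and PSMD5) none did, with 0 at an unadjusted p under 0.05. The differences (E. cyaneus minus E. verrucosus) were −0.64 ± 0.48 (SE) for PSMB1, −0.58 ± 0.30 (SE) for ADRM1, −0.28 for PSMD5 and −0.16 for PSMA3. What size of difference these pools could detect was not tested.

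Between E. verrucosus and G. lacustris, 41.2% of 629 names differed, and 5 of 7 members did. The log2 fold change of PSMD6 was 0.71 in E. verrucosus and −2.82 in G. lacustris, a difference of −3.53 ± 0.41 (SE) with an adjusted p of 7.7e-06. ADRM1 differed by −3.38, PSMD11 by −3.36, PSMA1 by −2.53 and PSMD14 by −1.91. PSMA5 and PSMB1 were not called, at differences of 0.70 and 0.32.

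Between E. cyaneus and G. lacustris, 55.4% of 578 names differed, and of 8 members RPN1 and 5 subunits and assembly factors did. In the joint fit PSMA2 had −0.09 in E. cyaneus and −2.79 in G. lacustris, a difference of −2.70 ± 0.45 (SE) with an edgeR adjusted p of 9.3e-05. ADRM1 differed by −2.79, PSMB4 by −2.50 and PSMB2 by −2.10. PSMG2 differed in the other direction, by 1.84 ± 0.63 (SE) with an adjusted p of 0.0192, which was 0.0961 with library totals in place of TMM. PSMB1 and PSMD8, at 0.96 and 0.46, were not called. Both counts of members stand against shares of all names of 41.2% and 55.4%, and nothing particular to the proteasome was tested.

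ADRM1 and PSMB1 were tested in all 3 species. In the interaction test the temperature effect of ADRM1 differed between G. lacustris and each Eulimnogammarus species, and that of PSMB1 was called in no comparison. ADRM1 had mean levels of 16, 20 and 16.9 CPM at 12 °C in E. verrucosus, E. cyaneus and G. lacustris, and of 29.6, 24.6 and 2.95 CPM at 1.5 °C. PSMB1 had 28.2, 34 and 32.2 CPM at 12 °C and 41.6, 32.1 and 59.4 CPM at 1.5 °C. At 12 °C the species therefore stood close to each other in both genes, and at 1.5 °C the G. lacustris value was the lowest for ADRM1 and the highest for PSMB1. The species were counted on separate assemblies, so these levels are set side by side and were not tested across species.

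Genes that act around the proteasome were taken from a list of ubiquitin precursors, ubiquitin activation, shuttling, unfoldase and deubiquitinating factors. In E. verrucosus edgeR called 0 of 11 tested (0 at an unadjusted p under 0.05, 0 by DESeq2) with a median of 0.17, and the lowest was the peptidase TPP2 at −0.59. In E. cyaneus edgeR called 0 of 13 (3 at an unadjusted p under 0.05, 1 by DESeq2), with a median of 0.14, from −0.57 for the ubiquitin fusion gene RpS27A to 0.64 for the ligase UBE3C. The authors' deposited table called 3 higher there, beside 2.24% of all its names. They were the ubiquitin precursor UBB at 1.57, the activating enzyme Uba1 at 1.57 and the shuttle factor UBQLN1 at 0.45.

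In G. lacustris edgeR called 3 of 14 higher and 9 lower, with a median of −2.26, beside 14.5% of all named features called higher and 46.0% lower, and 53.6% lower among those under 30 CPM. The higher ones were TXNL1, a thioredoxin of the proteasome, at 0.64, UFD1L, a cofactor of the unfoldase VCP, at 0.77, and ZFAND2B, a proteasome adaptor, at 0.99. NFE2L1, a transcription factor of the subunit genes in mammals, was at 12.5, 7.48, 13.8 and 8.97 CPM at 12 °C and at 0.39, 1.45, 0.246 and 0 CPM at 1.5 °C, and fell by 4.33 ± 0.71 (SE) with an edgeR adjusted p of 7.8e-04. The proteasome-bound deubiquitinases USP14 and UCHL5 fell by 2.65 and 2.56. The other falling names were AKIRIN2, NSFL1C, PLAA, rps27a, UBA6 and UBXN4, and BAG6 and UBXN6 were not called. The authors' deposited table called 6 of the list higher, BAG6, TXNL1, UBXN6, UFD1L and ZFAND2B and the ligase UBE3C. It called 13 lower, among them also FAF1, KIAA0368, TPP2 and UBE4B. Of all its names 25.1% were called higher and 33.8% lower. Of these names TXNL1, with a mean of 54.6 CPM at 12 °C, was the most abundant riser, and rps27a, at 102 CPM, fell although it stood above 30 CPM.

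Markers of other tissues were set beside these results. The sums hold only the paired names of a list, so they are compared between temperatures and not between species. The summed muscle list, with 9 of 12 names paired, lay at 12200 to 31700 CPM per pool at 12 °C and at 6640 to 10600 CPM at 1.5 °C in E. cyaneus. EdgeR called 0 of 7 there (5 at an unadjusted p under 0.05, 3 by DESeq2). The authors' deposited table called 4 of that list lower, beside 4.03% of all its names. The muscle sum was 1620 to 3090 CPM and then 900 to 2130 CPM in E. verrucosus, with 9 of 13 paired and 0 of 8 called (2 and 1 by the same measures). The most abundant muscle names of that species, TNNI1, TNNT2 and Mlc2, had no pair, and the authors' deposited table gives them log2 fold changes of −0.99, −0.50 and −0.32, none called. The same deposited table calls the muscle name sls lower in that species, at −1.11 with an adjusted p of 0.0481. In G. lacustris the sum was 7690 to 10500 CPM and then 5800 to 8930 CPM, with 16 of 19 paired. Of 9 tested, 1 was called higher and 4 lower, beside 14.5% and 46.0% of all named features. The sum is without the abundant Mhc, which the authors' deposited table gives at −0.53 and does not call. Of the yolk and oocyte list, Vg, the yolk protein precursor, rose in E. cyaneus by a log2 fold change of 2.62 (edgeR adjusted p = 0.0289). Of 3 tested in G. lacustris piwil1 fell by 2.87, and DDX4 and PIWIL1 had 0.59 and −1.26 without a call. For names without a pair there, the authors' deposited table calls PIWIL2 higher (1.05, adjusted p = 0.042) and gives Vg 0.59 without a call. In E. verrucosus none of that list could be tested. Vg had no pair there, and the authors' deposited table gives it a log2 fold change of 0.01 with an adjusted p of 0.991, at a mean normalised count of 262000. Of the haemocyte list, PPO1, a prophenoloxidase, was tested in E. cyaneus, with a log2 fold change of 0.56 and no call, 0 at an unadjusted p under 0.05 and 0 by DESeq2. The other name that the list tested, PPOX in E. verrucosus and G. lacustris (0.25 and 0.08, neither called), is the symbol of a haem synthesis enzyme and no haemocyte marker. Hml, the haemocyte protein hemolectin, had no pair, and the authors' deposited table calls it higher in E. cyaneus (1.05, adjusted p = 0.0112) and gives −0.47 in E. verrucosus and −0.13 in G. lacustris without a call. The names of the muscle list called in G. lacustris were MYL6, higher, and CSRP2, MYH3, sls and TNNT2, lower. That list was matched by symbol and there also took CSRP2BP and TNNI3K, which are symbols of other proteins. Whether MYL6 marks muscle in these animals was not tested. The 4 lower ones of the authors' deposited table in E. cyaneus were Mlc2, sls, TNNI1 and Unc-89. The part of these tissues in the proteasome values was not tested.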

How the data were processed

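Messenger RNA from whole-body pools was sequenced in 24 libraries, 4 for each of 3 species at 2 temperatures. Per the labels and the series' design text, the authors assembled 1 transcriptome per species with Trinity, removed redundant contigs and kept those matching metazoan sequences. Per the submitters' processing notes, Salmon 1.1.0 gave the deposited estimated counts and TPM per contig, and DESeq2 1.26.0 gave the deposited tables of mean normalised counts (a signal), log2 fold changes with their errors, test statistics (a score) and p-values per gene name. Genome builds were not given in the sources used here, and no table column of the series was left unused.

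Names were paired with contigs by recomputing the deposited mean normalised count. This was done for 1 contig, contigs of 1 Trinity cluster, a pair of contigs, or a cluster with 1 more contig. The relative tolerance was 1e-11 for 1 contig and tighter for clusters. Values shifted by 1e-05 matched no single contig, cluster or pair. This paired 83.0%, 88.6% and 81.1% of the names in E. verrucosus, E. cyaneus and G. lacustris, and fold changes recomputed from the pairs lay within 0.05 (log2) of the deposited ones for 100% of them. Estimated counts were rounded, summed over the contigs of a name, filtered with filterByExpr (minimum count 10, total 15) and tested in edgeR 4.0.16 (R 4.3.3) by the quasi-likelihood test with TMM and Benjamini-Hochberg adjustment over all features of a species. CPM are the same counts relative to the TMM-scaled library total.

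Differences between species were tested as a species-by-temperature interaction over shared names. The steps were tested on simulated data. Assigned counts per library limit the precision, and intervals and the limit of 3 counts for a count of 0 cover counting error only. Whether pools came from separate tanks is not stated, so p-values measure the spread between pools. Replicate numbers did not pair the libraries: same-numbered pools correlated between −0.21 and 0.11 in their deviations. The members and gene lists were chosen with earlier results of these data known. The text names members called in any fit or deposited table, the highest and lowest of each role, and members called in an interaction, and of the lists the called genes and the highest and lowest. Some genes that this rule takes are not reported here.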

Additional observations from a re-analysis of the deposited data

Results flagged for a closer look

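Among 98 groups of 4 pools, one for each tested member and temperature, 15 had a pool set apart from the other 3 by more than Dixon's 95% critical value; chance flags about 5% of such groups. In E. verrucosus at 1.5 °C, pool 4 stood high for PSMA1 (105 CPM), PSMA3 (138 CPM) and PSMB5 (129 CPM), and pool 3 held the only count of PSMD9 (0.0626 CPM). At 12 °C, pool 3 stood high for PSMD6 (152 CPM) and pool 1 for POMP (87.5 CPM). In E. cyaneus, PSMD8 had a high pool at each temperature (295 CPM in warm pool 2 and 374 CPM in cold pool 4), warm pool 1 was low for PSME4 (1.72 CPM) and cold pool 1 was low for PSMG2 (8.3 CPM). In G. lacustris, cold pool 3 was high for PSMA5 (344 CPM) and PSMB1 (88.6 CPM), cold pool 4 was high for PSMA1 (0.706 CPM), warm pool 3 was low for PSMB3 (64.1 CPM), and warm pool 1 was high for PSME3 (5.06 CPM).

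Of 19 differences in temperature effect between species, 11 passed the edgeR interaction test. Against E. verrucosus, G. lacustris had more negative effects for ADRM1 (−3.38), PSMA1 (−2.53), PSMD11 (−3.36), PSMD14 (−1.91) and PSMD6 (−3.53). Against E. cyaneus its effects were more negative for ADRM1 (−2.79), PSMA2 (−2.70), PSMB2 (−2.10), PSMB4 (−2.50) and RPN1 (−3.01) and more positive for PSMG2 (1.84).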

How the results depend on the processing

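In E. verrucosus the 795 features called of 23801 became 1371 with DESeq2. The 1 member called became 3 with DESeq2, 2 with each contig tested singly and 1 to 2 when each library was left out. The authors' deposited table, which tested fewer features, called 151 of 3217 names and 6 of 28 members. In E. cyaneus the 128 features called became 868 with DESeq2 and 39 to 198 when each library was left out, and the 0 members called became 1 with DESeq2 and 1 in the authors' deposited table. The median of its members, 0.10, became 0.50 with library totals. In G. lacustris edgeR called 11515 of 26828 features, and the authors' deposited table called 2943 of the 4993 names it tested. The members' median of −2.58 became −2.97 without a filter and −1.94 in the authors' deposited table. With TMM over features at 32 CPM and more (chosen after seeing the data) it became −3.02. All 14 falls and that of RPN1 were called in every edgeR and DESeq2 fit run here; in the authors' deposited table PSMD7 was not called lower (adjusted p = 0.0751) and the other 13 and RPN1 were. Differences between species called went from 9 to 5 (E. verrucosus and E. cyaneus), from 259 to 108 (E. verrucosus and G. lacustris) and from 320 to 129 (E. cyaneus and G. lacustris) when only names with 1 contig in both species were kept, where fewer names were tested, and the first lay between 7 and 14 when each library was left out.

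With the replicate block, E. verrucosus had 190 features called and E. cyaneus 48; the numbers do not pair the libraries, and no library correlated best with its own number except pool 4 of G. lacustris. The calls of E. cyaneus, 64 higher and 64 lower, had a share of higher calls of 84.8% with library totals (112 higher, 20 lower), 72.9% with the block, 63.7% with TMM over abundant features and 36.2% with DESeq2. In G. lacustris 31.5% became 21.4% with library totals (2182 higher, 8033 lower) and 10.4% with TMM over abundant features (986 higher, 8486 lower). Of the named members' other values, 34 of 280 for G. lacustris lost a call and 2 gained one. Gains were 3 of 210 for E. verrucosus and 1 of 210 for E. cyaneus. A change of direction that involved a call occurred 0 times. Fold changes without a call did change sign against the main fit, in 15 values for E. verrucosus and 21 for E. cyaneus. For G. lacustris there were 0 such values. The PSMG2 difference between E. cyaneus and G. lacustris was not called without G. lacustris warm pool 3 or cold pool 3 (highest adjusted p 0.0685). The causes were not tested.

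Depth limits the members under 1 CPM, among them the paired base ATPases, of which 0 to 1 had enough counts for the test in each species; PSMC1 and PSMC4 were not tested because they had no pair. With 4 pools of animals a group, differences well above the SEs given could also go without a call. An example is ADRM1 of E. verrucosus, at 0.89 ± 0.24 (SE) with an edgeR adjusted p of 0.12.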
